A study of Mus musculus with 4 samples.

Results

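The genes of major histocompatibility complex (MHC) class I presentation were followed through T cell development in the thymus, in control mice and in mice lacking Tox4 in T cells. The set held 10 genes, chosen by name, of the 32285 genes in the deposited tables: the heavy chains H2-K1, H2-D1 and H2-Q7, the light chain B2m, the peptide transporter genes Tap1 and Tap2, the loading factor Tapbp, the immunoproteasome subunits Psmb8 and Psmb9, and the regulator Nlrc5. All 10 were found once each by their symbol.

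Whole thymocytes of 4 mice were profiled by droplet 3′ single-cell RNA sequencing, 1 library per mouse. The 2 control mice carried 2 floxed Tox4 alleles (Tox4;F/F) and no Cre, and the 2 conditional knockout (cKO) mice carried the same alleles plus an Lck-Cre transgene (Tox4;F/F;Lck+). Per the study, the transgene is driven by the proximal Lck promoter and deletes from the DN3 stage on, so DN cells may include cells before deletion, and cells outside the T lineage are not its target. The mice were sex-matched littermates 6 to 8 weeks old, with floxed alleles made on the C57BL/6 background. Tox4 encodes a nuclear DNA-binding protein, and the comparison of genotypes asks which genes change at which stage when it is lost.

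The libraries held 12609, 11790, 15608 and 17347 cells (control 1, control 2, cKO 1 and cKO 2) and between 42716798 and 62007453 unique molecular identifiers (UMIs, tags that count each captured transcript once). Cells with over 10% mitochondrial UMIs made up 48.3% and 46.1% of control 1 and cKO 1 against 20.6% and 23.1% of control 2 and cKO 2, so this share went with the replicate number and not with the genotype. After filtering, 33414 cells remained. Between 36 and 70 cell barcodes were shared by a pair of libraries, at most 0.56% of either. Levels are given as UMIs per 1000000 UMIs of the summed cells of a class in a library (CPM). In such sums, fewer transcripts per cell and fewer cells that carry a transcript cannot be told apart. Tox4 itself was lower in both cKO libraries in DPre cells (77.6 and 82.3 CPM in control, 65.4 and 67.2 CPM in cKO) without passing the test (adjusted p = 0.321, edgeR). Tox4 was called in none of the 7 classes tested. The study floxed internal exons and the reads come from the 3′ end of transcripts, so this level is a weak check of the labels.

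Class I molecules display peptides from inside the cell to CD8 T cells. The immunoproteasome cuts proteins into peptides, the TAP transporter (Tap1 and Tap2) moves them into the endoplasmic reticulum, tapasin (Tapbp) holds the empty heavy chain beside the transporter, and the loaded heavy chain leaves for the surface with β2-microglobulin (B2m). NLRC5 is the transactivator of class I genes. In the thymus, cortical DP cells are known for low surface class I, while mature single-positive cells carry much more. H2-Q7 encodes the Qa-2 antigen, a classical marker of late maturation of thymocytes.

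By GENCODE M21 on GRCm38, 8 of the 10 genes lie in the MHC on chromosome 17, between 33915899 (start of Tapbp) and 35443773 (end of H2-Q7). H2-K1 is at chr17:33996017-34000347 (minus strand), H2-D1 at chr17:35262730-35267499 and H2-Q7 at chr17:35439155-35443773 (both plus). Psmb9 (chr17:34181987-34187764, minus) and Tap1 (chr17:34187553-34197225, plus) overlap at their starts, and Psmb8 (chr17:34197721-34201454) and Tap2 (chr17:34203527-34216321) follow on the plus strand. Tapbp is at chr17:33915899-33929292 (plus). B2m is at chr2:122147686-122153083 and Nlrc5 at chr8:94434356-94527272, both on the plus strand.

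NLRC5 acts through a composite promoter element, the SXY module, whose X2 box resembles a cyclic AMP response element and whose Y box is an inverted CCAAT sequence. The sequences below show where the letters of this module occur in the members' promoters. RefSeq promoter entries (GRCm38.p6, 250 bases before to 50 after the start) existed for 8 of the 10 genes and not for Tap2 or Nlrc5. The motif TGACG (X2) followed on the strand of the gene by ATTGG (Y) after 18 to 21 bases, a spacing chosen after the sequences had been read, was found in 4 of the 8 and in 37 of 27025 promoters (0.137%). On either strand, TGACG alone was in 21% and ATTGG alone in 37.9% of promoters. Capitals mark the 2 motifs, which do not overlap, and each sequence is read 5′ to 3′ on the strand of its gene.
H2-K1, chr17:34000359-34000388 (minus): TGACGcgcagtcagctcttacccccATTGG
H2-D1, chr17:35262993-35263022 (plus): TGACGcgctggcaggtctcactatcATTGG
H2-Q7, chr17:35439091-35439119 (plus): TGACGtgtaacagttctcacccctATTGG
B2m, chr2:122147609-122147638 (plus): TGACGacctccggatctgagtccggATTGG
Positions of genes above are from GENCODE, and the RefSeq start of H2-D1 lies downstream of its GENCODE start, so that its element lies inside the GENCODE gene and ends 71 bases before the RefSeq start. The motifs lay 20 bases apart in H2-K1, H2-D1 and B2m and 19 bases apart in H2-Q7. Tap1 and Psmb9 held both motifs outside this arrangement, Tapbp held ATTGG alone, and Psmb8 held neither.

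The heavy chain promoters also held an NF-κB site core (GGATTCCC, in 1.04% of promoters on either strand) followed by part of an interferon-stimulated response element (TTTCAC, in 13.1%). Both motifs are in capitals and do not overlap. Any part of these stretches in the levels given further on was not tested.
H2-K1, chr17:34000432-34000456 (minus): GGATTCCCcatctccacagTTTCAC
H2-D1, chr17:35262925-35262949 (plus): GGATTCCCcatctcctcagTTTCAC
H2-Q7, chr17:35439024-35439047 (plus): GGATTCCCatctccccagTTTCAC
B2m, Tap1, Tapbp and Psmb9 held neither of these motifs in this window, and Psmb8 held TTTCAC alone. A match is a description of letters and not of a bound site.

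To place the genes along development, cells were clustered without the members and without 29 other genes of the pathway and its regulators, and clusters were named from fixed marker lists. Of 24 clusters, 14 were named as 6 αβ T cell stages, with 28705 cells (85.9% of those kept): DN (648 cells), cycling DP blasts (DPbla, 2917), DP cells under rearrangement (DPre, 17198), DP cells under selection (DPsel, 5342), CD4SP (1832) and CD8SP (768). These are marker-based names ("X-like"), rebuilt here. DN cells were led by Gm4632, Tcrg-C2, Tcrg-C1 and Il2ra, with Hes1 and Tcrg-C4 further down. They scored 3.047 on the DN list and, second, 2.735 on the γδ T cell list. Of the 3 DPsel clusters, 2 scored second on the CD4SP list, 1 led by Itm2a and Il7r (1663 cells) and 1 by Xcl1 and Tnfrsf9 (646 cells). DPre included a cluster of 588 cells led by mitotic genes (Ccnb2, Cdc20 and Cenpa). An unnamed cluster of 1690 cells that scored highest on the DPbla list was left out for its low UMI totals, with 179 and 284 cells in control and 546 and 681 in cKO. The CD8SP cluster held 626 to 1348 CPM of the summed DPbla (cell cycle) markers, against 172 to 255 CPM in CD4SP cells.

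Most class I genes were low in DP cells, rose in DPsel cells and were highest in SP cells, while Tap2 went the other way and Psmb8 moved little. H2-K1, a classical heavy chain, was at 312, 277, 335 and 337 CPM in DN cells (control 1, control 2, cKO 1, cKO 2) and at 43.3, 34.5, 63.3 and 56.4 CPM in DPbla cells. It stayed at 53.5, 44.3, 54.1 and 63.6 CPM in DPre cells, reached 413, 278, 503 and 335 CPM in DPsel cells, and then 1796, 1574, 1671 and 1521 CPM in CD4SP and 1648, 1361, 1541 and 1520 CPM in CD8SP cells. In all 4 libraries H2-K1 was lower in DPbla and DPre than in DN and DPsel cells and highest in SP cells, and the lowest and highest stage means (49.4 and 1641 CPM) differed 33.2-fold. The DPbla and DPre ranges overlapped, as did those of DN and DPsel and those of CD4SP and CD8SP.

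H2-D1, the other classical heavy chain of this strain, fell from 253 to 310 CPM in DN cells to 77.3 to 99.2 CPM in DPbla cells and reached 1131 to 1269 CPM in CD4SP cells. Its stage means spanned 13.6-fold and only CD4SP and CD8SP overlapped between neighbouring stages. B2m, the shared light chain, was at 1018, 953, 990 and 1048 CPM in DN cells and at 186, 153, 224 and 245 CPM in DPbla cells. In CD8SP cells it was at 1560, 1488, 1595 and 1739 CPM, 7.90 times its DPbla mean. The light chain thus covered a narrower range than H2-K1, and its DN libraries lay above all its DP libraries and below all its SP libraries.

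H2-Q7 had the widest range of all members. It was at 2.94, 3.03, 3.59 and 3.42 CPM in DPbla cells, at 17.3, 11.9, 26.0 and 19.2 CPM in DPsel cells, at 124, 118, 129 and 138 CPM in CD4SP cells and at 252, 211, 270 and 238 CPM in CD8SP cells. No CD4SP library reached the lowest CD8SP library. Of the 60-base stretches in the last 500 bases of H2-Q7 transcripts, 9.86% also occur in H2-Q5, so counts of H2-Q7 are less certain than those of B2m, Tap2, Psmb8, Psmb9 and Nlrc5, which share none. The share was 4.69% for H2-K1, 3.56% for H2-D1, 2.99% for Tapbp and 1.69% for Tap1.

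Nlrc5 followed the heavy chains at much lower counts. Its level was 3.01, 0, 3.44 and 6.28 CPM in DN cells and 0.98, 0.84, 2.57 and 1.76 CPM in DPbla cells, which rests on 4 to 20 UMIs per library. It was at 22.8, 15.4, 24 and 20.8 CPM in DPsel, at 59.8, 46.0, 67.8 and 73.7 CPM in CD4SP and at 48.7, 40.6, 51.6 and 58.3 CPM in CD8SP cells. The libraries of DN, DPbla and DPre cells overlapped, and all of them lay below the lowest DPsel library.

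The peptide-loading genes differed from each other. Tapbp had stage ranges with no overlap between neighbours, from 23.9 to 38.0 CPM in DPbla through 45.7 to 60.5 CPM in DPre and 105 to 128 CPM in DPsel to 220 to 261 CPM in CD4SP cells. Tap1 stayed between 44.5 and 64.8 CPM in DN, DPbla and DPre cells, and was at 158 to 182 CPM in CD4SP and 116 to 138 CPM in CD8SP cells. Tap2, its partner in the transporter, was at 274, 260, 240 and 209 CPM in DPbla cells, at 154, 137, 148 and 123 CPM in CD4SP cells and at 126, 109, 107 and 88.9 CPM in CD8SP cells. Tap2 was thus highest in the DP cells in which Tap1 was low.

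The immunoproteasome members also parted. Psmb8 varied 1.38-fold between its stage means, with 478 to 544 CPM in DPre cells, 667 to 745 CPM in DN cells and 635 to 714 CPM in CD4SP cells. Psmb9 fell from 125 to 147 CPM in DPbla cells to 55.7 to 68.0 CPM in DPre cells and rose to 197 to 237 CPM in CD4SP cells. Over the 24 sums of stage and library, the log2 levels of H2-K1, H2-D1, H2-Q7, B2m, Tapbp and Nlrc5 correlated pairwise with Pearson's r of 0.77 to 0.99, and those of Tap2 with the other 9 members with r of -0.90 to -0.28. These sums share libraries and depth, so the correlations are descriptions.

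**Figure D1:**
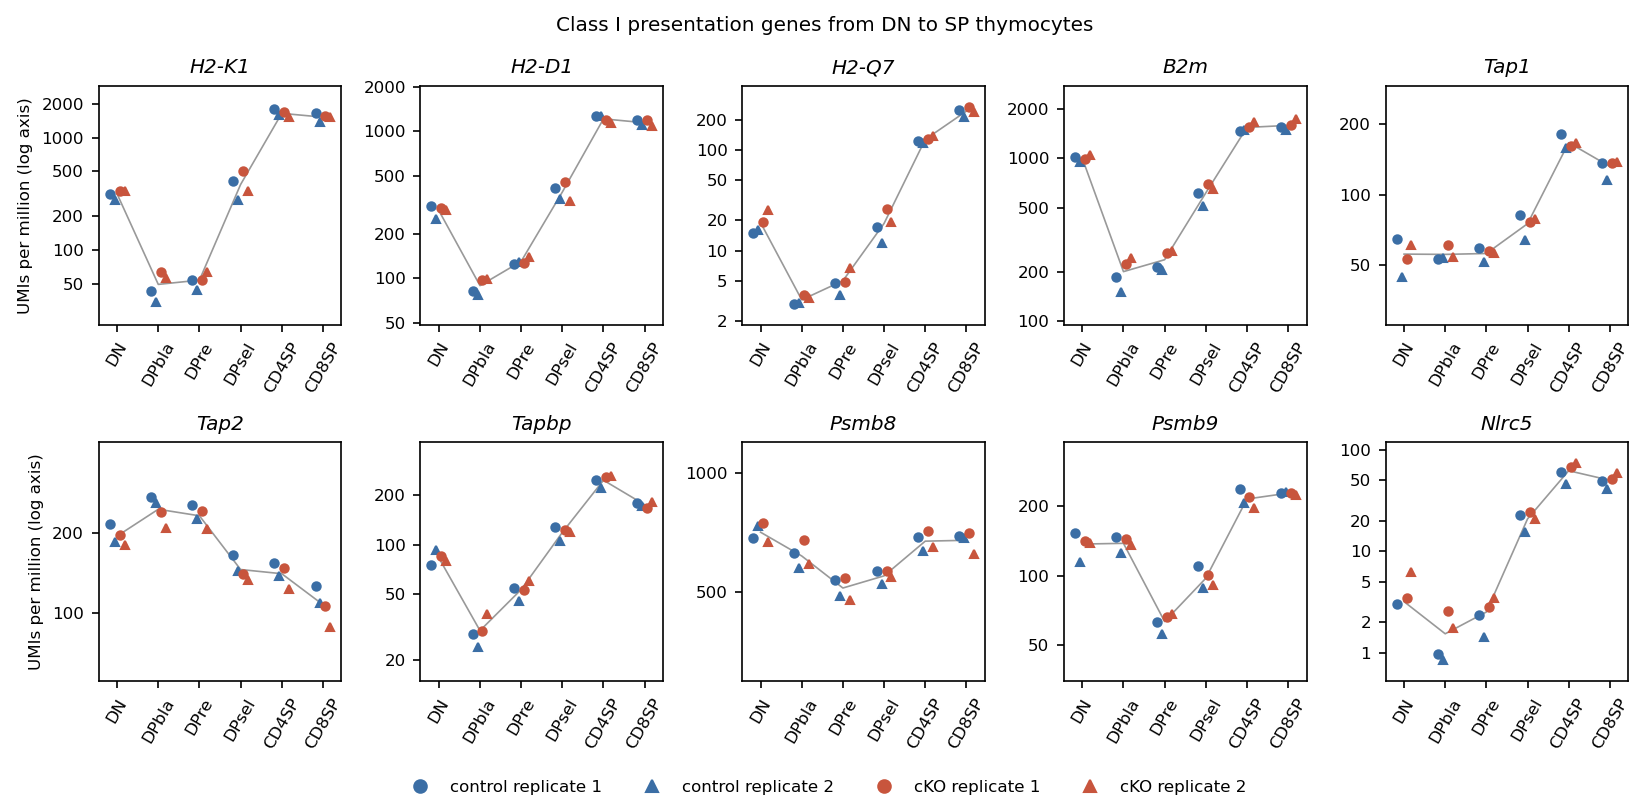
Level of each class I gene (CPM, log axis, scaled for each gene) by stage, with 1 point per library and a grey line through the stage means. H2-K1, H2-D1, H2-Q7, B2m, Tapbp and Nlrc5 are lowest in DPbla cells and highest in SP cells, Tap2 is highest in DPbla cells, and Psmb8 varies 1.38-fold. The DN point of Nlrc5 in control 2 is at 0 and not drawn.

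To test these steps, sums of all 6 stages were fitted together with edgeR's quasi-likelihood F test, with stage and library as terms, and a gene was called at a Benjamini-Hochberg adjusted p under 0.05 over the 11271 genes tested. The fit scales libraries by trimmed means (TMM), so a log2 difference can part from the ratio of CPM where stages differ in their most abundant genes. Stages differ in much of the transcriptome, so the count of members is given beside the share of all genes called. From DN to DPbla cells, 6 of 10 members fell (29.9% of all genes did) and 1, Tap2, rose (31.4% of all genes). H2-K1 fell by 2.54 (SE 0.12), H2-Q7 by 2.51 (SE 0.24) and B2m by 2.19 (SE 0.08) on the log2 scale, and H2-D1, Tapbp and Nlrc5 fell as well. With doublets kept the changes of H2-K1 and H2-Q7 were -1.61 and -1.20. The call of Nlrc5 was lost in 4 of 13 alternatives, 1 of them without cKO 2 (log2 fold change -0.32, adjusted p = 0.693). Tap1, Psmb8 and Psmb9 did not pass the test.

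From DPbla to DPre cells 4 members fell (34.2% of all genes) and 2 rose (40.6%). Psmb9 fell by 1.38 (SE 0.06) and Psmb8 by 0.52 (SE 0.05), while Tapbp rose by 0.54 (SE 0.08), or by 0.25 with doublets kept. H2-D1 rose by 0.28 (SE 0.08), but it fell by 0.33 when doublets were kept, and the call was lost without control 2 (log2 fold change 0.17, adjusted p = 0.0852). Tap1 (-0.25) and Tap2 (-0.33) fell on this scale although the CPM of each overlapped between the stages, and both turned to 0.07 and lost their call when cells in the highest and lowest 2.5% of UMI totals were kept. H2-K1 and B2m, at log2 fold changes of -0.15 and -0.01, did not pass the test.

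From DPre to DPsel cells 9 members rose (29.8% of all genes) and Tap2 fell (29.6%). Nlrc5 rose by 3.10 (SE 0.16), H2-K1 by 2.89 (SE 0.11), H2-Q7 by 1.93 (SE 0.14), H2-D1 by 1.65 (SE 0.08), B2m by 1.46 (SE 0.07) and Tapbp by 1.24 (SE 0.07) on the log2 scale. Psmb9, Tap1 and Psmb8 rose by 0.71, 0.51 and 0.20. Tap2 fell by 0.57 (SE 0.05). The median over the 10 members was 1.35, against -0.0155 over all genes tested. DPsel sums include the clusters that scored second on the CD4SP list (1663 and 646 of 5342 cells), and the rise was not split by cluster.

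From DPsel to CD4SP cells all 10 members rose (18.9% of all genes) and none fell (18.6%). H2-Q7 rose by 3.04 (SE 0.11), H2-K1 by 2.37 (SE 0.10), H2-D1 by 1.90 (SE 0.08) and Nlrc5 by 1.82 (SE 0.12). The rise of Tap2 was 0.19 (SE 0.06, adjusted p = 0.0130), while its mean CPM was 146 in DPsel and 141 in CD4SP cells, and it lost its call under 6 of the alternatives, 1 of them without cKO 1. From DPsel to CD8SP cells 9 members rose (21.8% of all genes), H2-Q7 by 3.98 (SE 0.10), and Tap2 fell (25.0%) by 0.20 (SE 0.07), a call lost in 11 of the alternatives, each of the 4 that leave out a library among them (log2 fold changes of -0.12 to -0.03).

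Across the whole course from DPre cells, 9 members were higher in CD4SP cells (30.4% of all genes) and Tap2 was lower (29.2%). The same split held for CD8SP cells, where 32.3% of all genes were higher and 33.9% lower. In CD4SP cells the log2 differences from DPre were 5.26 (SE 0.12) for H2-K1, 4.97 (SE 0.11) for H2-Q7, 4.92 (SE 0.15) for Nlrc5, 3.55 (SE 0.08) for H2-D1, 3.04 (SE 0.07) for B2m, 2.53 (SE 0.07) for Tapbp, 2.10 (SE 0.06) for Psmb9, 1.91 (SE 0.06) for Tap1, 0.73 (SE 0.05) for Psmb8 and -0.39 (SE 0.06) for Tap2. The adjusted p of Tap2 was 3.7e-07. The heavy chains and Nlrc5 thus rose most and the proteasome and TAP genes less.

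CD8SP and CD4SP cells differed in 4 members. H2-Q7 was higher in CD8SP cells by 0.94 (SE 0.09, 14.0% of all genes were higher), a difference seen in every library, and by 1.46 with doublets kept. Tapbp (-0.49, SE 0.08), Tap2 (-0.38, SE 0.07) and Tap1 (-0.34, SE 0.07) were lower (17.9% of all genes), Tap2 at -0.20 at clustering resolution 1.5, with the call of Tap1 lost without control 2 (-0.20, adjusted p = 0.0613). H2-K1, H2-D1 and B2m, at -0.11, -0.09 and 0.04, did not pass the test. Nlrc5 was at -0.31 (SE 0.13, adjusted p = 0.0614).

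Other genes of the pathway were taken from fixed lists. Of 7 further class I heavy chains, 6 were tested and all 6 rose from DPre to CD4SP cells (H2-Q4, H2-Q6, H2-T22, H2-T23, H2-T24 and H2-M3), with a median log2 difference of 2.34. H2-Q6, which lies beside H2-Q7 and also encodes a Qa-2 chain, rose by 3.09 (SE 0.34) and was higher in CD8SP than in CD4SP cells by 1.38 (SE 0.28), as H2-Q7 was. H2-Q4, H2-T22, H2-T23 and H2-T24 were lower in CD8SP cells. H2-T23, which encodes Qa-1, was at 136 to 181 CPM in DPre and 364 to 444 CPM in CD4SP cells.

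Of 9 processing and loading genes, 8 rose from DPre to CD4SP cells. Psme2 and Psme1, which encode the PA28 proteasome activator, rose by 2.59 (SE 0.08) and 1.59 (SE 0.06), Psmb10, the remaining immunoproteasome subunit, by 1.77 (SE 0.09), and Erap1, the peptide-trimming aminopeptidase, by 1.49 (SE 0.11). The chaperones Calr (1.33), Pdia3 (1.03) and Canx (0.26) rose less. Among the regulators, the interferon regulatory factors Irf1 (2.77, SE 0.10) and Irf2 (0.86, SE 0.06) rose. Rfxap and Rfxank (subunits of the RFX complex), Nfya, Nfyb and Nfyc (subunits of NF-Y, which binds CCAAT sequences) and Creb1 (which binds cyclic AMP response elements) fell by 0.29 to 0.70. All 12 interferon-response genes rose, with a median of 4.10, and their summed level went from 165 to 249 CPM in DPre cells to 2928 to 3321 CPM in CD4SP cells. All 12 were lower in CD8SP than in CD4SP cells (median -0.669), where 17.9% of all genes were lower. On that comparison Tap1, Tap2 and Tapbp were lower too, H2-Q7 was higher, and H2-K1, H2-D1 and B2m did not pass the test. The part of the interferon-response genes in the rise of class I genes was not tested. Of the 7 class II genes, 6 were tested and only Cd74 and H2-DMa rose.

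Each inducible proteasome subunit replaces a constitutive one, and the share of UMIs from the inducible gene was compared across stages within each pair. Capture can differ between genes, so the share itself is not the make-up of the proteasome. Psmb9 made up 20.5% to 25.8% of the UMIs of Psmb9 and Psmb6 in DPre cells, 28.7% to 31.7% in DPsel cells and 54.4% to 56.2% in CD4SP cells. Psmb10 made up 20.7% to 30.1% of Psmb10 and Psmb7 in DPbla and 59.6% to 67.4% in CD4SP cells. Psmb8 was already at 73.7% to 74.2% of Psmb8 and Psmb5 in DPre and at 78.2% to 80.5% in CD4SP cells. All 3 shares were higher in CD4SP than in DPre cells in every library with no overlap, and they differed in size, with that of Psmb8 between 67.3% and 80.5% at all 6 stages. Both genes of a pair enter its share. On the CPM scale Psmb7 went from 183 to 189 in DPbla and 128 to 140 in DPre to 83.5 to 117 in CD4SP cells, and Psmb6 from 196 to 234 in DPre to 165 to 185 in CD4SP cells. In the TMM-scaled fit from DPre to CD4SP cells Psmb5 rose by 0.27 (SE 0.06), Psmb7 fell by 0.19 (SE 0.07) and Psmb6 did not pass the test.

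**Figure D2:**
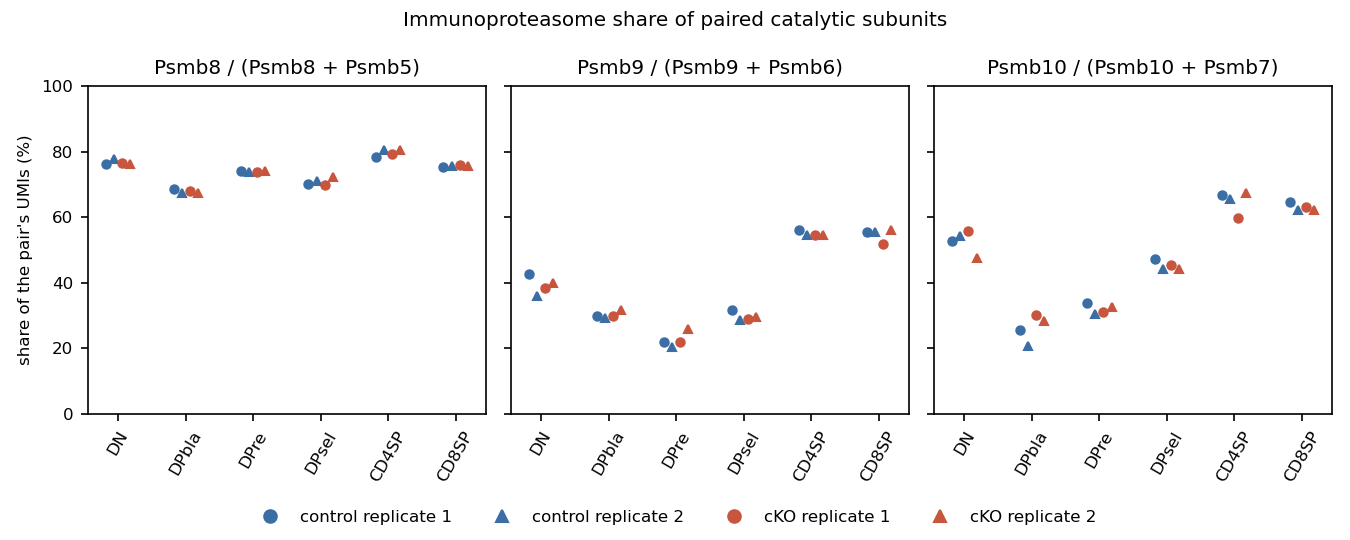
Share of UMIs from the inducible subunit in each pair of catalytic proteasome subunits (%, 1 point per library) by stage. The Psmb9 share is 20.5% to 25.8% in DPre and 54.4% to 56.2% in CD4SP cells, whereas the Psmb8 share lies between 67.3% and 80.5% at all 6 stages.

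The 5 genes outside the set that were most like the members over the 24 sums, by Pearson's r with the mean z-scored log2 level of the 10 members, were 9930111J21Rik2 (r = 0.98), Rnf213 (0.98), Cdk2ap2 (0.97), Rps29 (0.97) and Ifi47 (0.97). Ifi47, an interferon-inducible GTPase, was at 42.2 CPM in DPbla and 269 CPM in CD4SP cells on average. Rps29, a ribosomal protein gene, was at 3555 CPM in DPre and 7268 CPM in CD4SP cells.

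Whether the genes kept rising within SP cells was examined next. Each SP cell was given a maturity score from 5 genes of mature cells (among them S1pr1, Klf2, Il7r and Ms4a4b) minus 5 of immature cells (Cd24a, Ccr9, Cd69, Itm2a and Rag1), and the cells of each class were cut into 3 equal groups by score. The most mature group was compared with the least mature one, with library as a term. The groups are a range of a score and not cell types, and 204 of 1832 CD4SP cells and 89 of 768 CD8SP cells lay within 0.05 of a cut. In both classes the same 4 members rose, H2-K1, H2-D1, H2-Q7 and B2m, and the other 6 did not pass the test. Among all genes tested, 6.35% rose in CD4SP and 6.84% in CD8SP cells.

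H2-Q7 changed most. In CD4SP cells it went from 68.6, 81.2, 91.2 and 89.5 CPM in the least mature cells to 182, 151, 170 and 175 CPM in the most mature cells (log2 fold change 1.16, SE 0.11). In CD8SP cells it went from 136, 137, 150 and 152 CPM to 350, 305, 345 and 369 CPM (1.36, SE 0.11). The groups did not overlap in either class. H2-K1 rose by 0.71 (SE 0.04) in CD4SP and 0.64 (SE 0.06) in CD8SP cells, H2-D1 by 0.61 (SE 0.04) and 0.58 (SE 0.06), and B2m by 0.37 (SE 0.04) and 0.44 (SE 0.06), each in 4 of 4 libraries. The size of these changes depended on the cells taken: at clustering resolution 1.5, H2-Q7 was at 2.09 in CD4SP and 2.84 in CD8SP cells and H2-K1 at 1.22 and 1.21, and with doublets kept the CD8SP values were 0.77 for H2-Q7 and 0.39 for H2-K1.

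The other members had log2 fold changes of -0.11 (Tap2) to 0.20 (Psmb9) in CD4SP and 0.05 (Psmb8) to 0.21 (Psmb9) in CD8SP cells for Tap1, Tap2, Tapbp, Psmb8, Psmb9 and Nlrc5, and were not tested against the heavy chains. At clustering resolution 1.5, Tap1 (0.32), Psmb9 (0.39) and Nlrc5 (0.42) were called too in CD4SP cells and Psmb8 (0.24) and Psmb9 (0.57) in CD8SP cells, and with doublets kept Psmb9 was called in both (0.25 and 0.42). Of the further heavy chains, H2-Q4 rose in CD4SP cells (0.33, SE 0.08), and H2-Q4, H2-Q6, H2-T22 and H2-T23 rose in CD8SP cells by edgeR, while DESeq2 called 0 of this list in either class. Psme2 rose in both (0.23 and 0.39), and Psmb10 and Psme1 rose in CD8SP cells, and DESeq2 called 2 genes of this list in CD8SP and 0 in CD4SP cells. Interferon-response genes were split in CD4SP cells, where Ifit3, Irf7 and Ifi27l2a rose and Ifit1, Rsad2 and Usp18 fell. In CD8SP cells Ifit1, Ifit3, Ifi27l2a and Xaf1 rose. Of this list DESeq2 called 3 in CD4SP and 2 in CD8SP cells. The most mature group held 26.3% and 34.0% of control and 37.0% and 34.8% of cKO CD4SP cells, and 28.6% and 29.9% of control and 38.9% and 33.3% of cKO CD8SP cells.

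**Figure D3:**
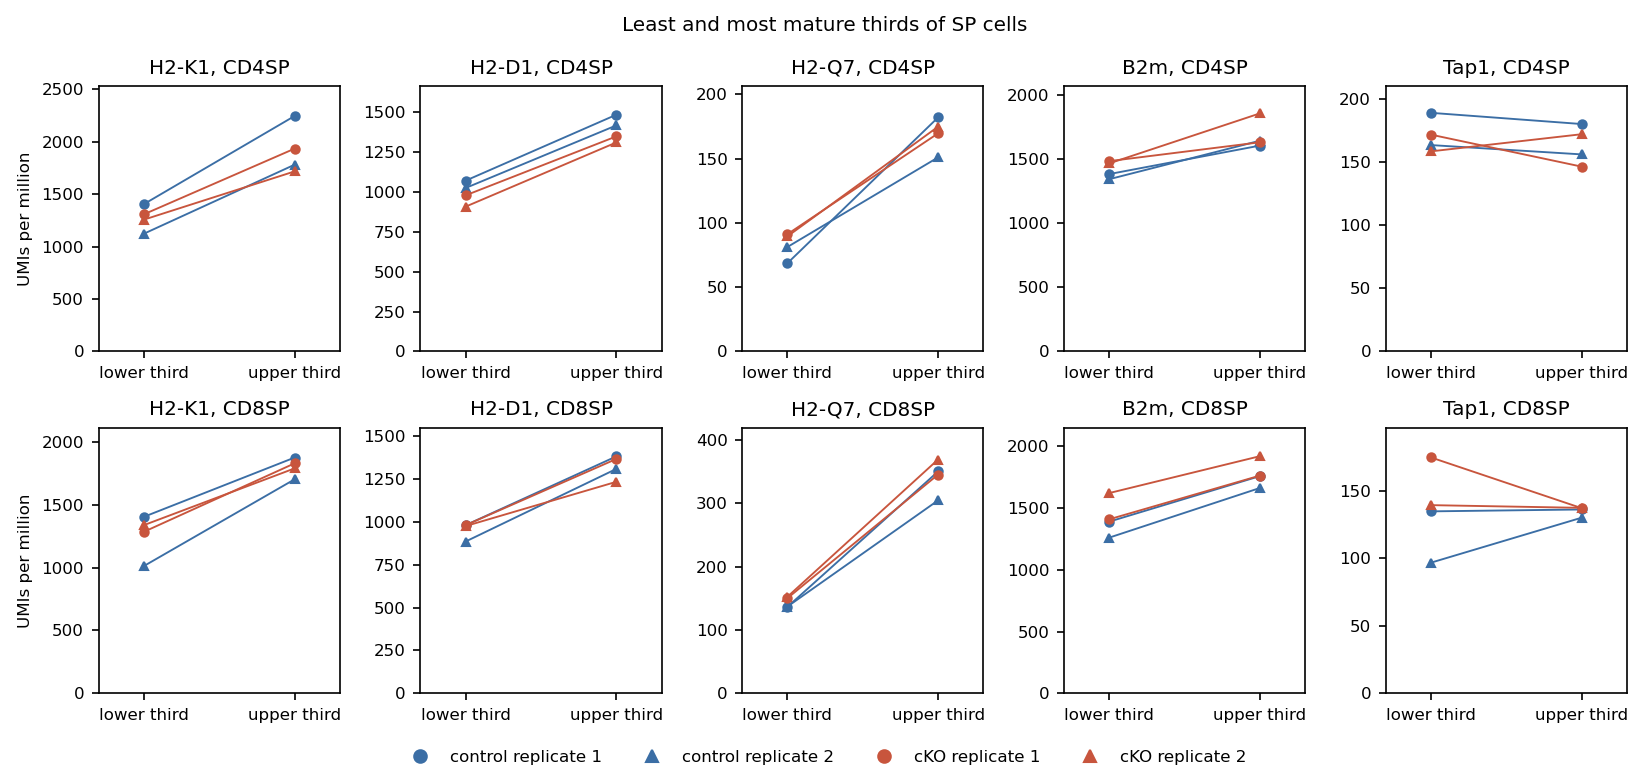
Levels (CPM, axes from 0) of H2-K1, H2-D1, H2-Q7, B2m and, as a member that did not pass the test, Tap1, in the least and most mature group of CD4SP (top) and CD8SP (bottom) cells, with 1 line per library. H2-Q7 goes from 68.6 to 91.2 up to 151 to 182 in CD4SP cells, and every line of the first 4 genes rises.

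To ask whether loss of Tox4 changed these genes, cKO and control sums were compared within each class (n = 2 per group, edgeR, genotype as the single term). With 2 against 2 libraries, a permutation of labels cannot give a two-sided p under 0.333, so the calls rest on the spread that edgeR estimates across genes. Of 10 members, 2 were called in DPbla cells, where 2.48% of all genes were, and DESeq2 called the same number. With this edgeR fit no member was called in the other 6 classes tested (DN, DPre, DPsel, CD4SP, CD8SP and MPS), and B, γδ T and Erythroid cells were not tested. The study describes 2 pairs of control and cKO littermates, and the labels do not say whether the replicate number marks the pair, so calls that differ with this number as a block are given beside the results.

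H2-K1 was at 43.3 and 34.5 CPM in control and 63.3 and 56.4 CPM in cKO DPbla cells. Both cKO libraries lay above both control libraries (log2 fold change 0.68, SE 0.13, edgeR adjusted p = 0.0137). B2m was at 186 and 153 CPM in control and 224 and 245 CPM in cKO (0.53, SE 0.11, adjusted p = 0.0231). H2-D1, at 82.2 and 77.3 against 98.2 and 99.2 CPM, did not pass the test (0.36, SE 0.11, adjusted p = 0.0990), nor did Tapbp (0.44, SE 0.16, adjusted p = 0.173) or Nlrc5 (1.26, SE 0.52, adjusted p = 0.244). With the replicate block H2-D1 (0.36, adjusted p = 0.00476) and Tapbp (0.44, adjusted p = 0.0132) were called as well, where 10.3% of all genes were. In all, 7 members were higher in both cKO DPbla libraries than in both controls (18.3% of all genes were), and 1, Tap2, was lower in both (28.4% of all genes were).

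**Figure D4:**
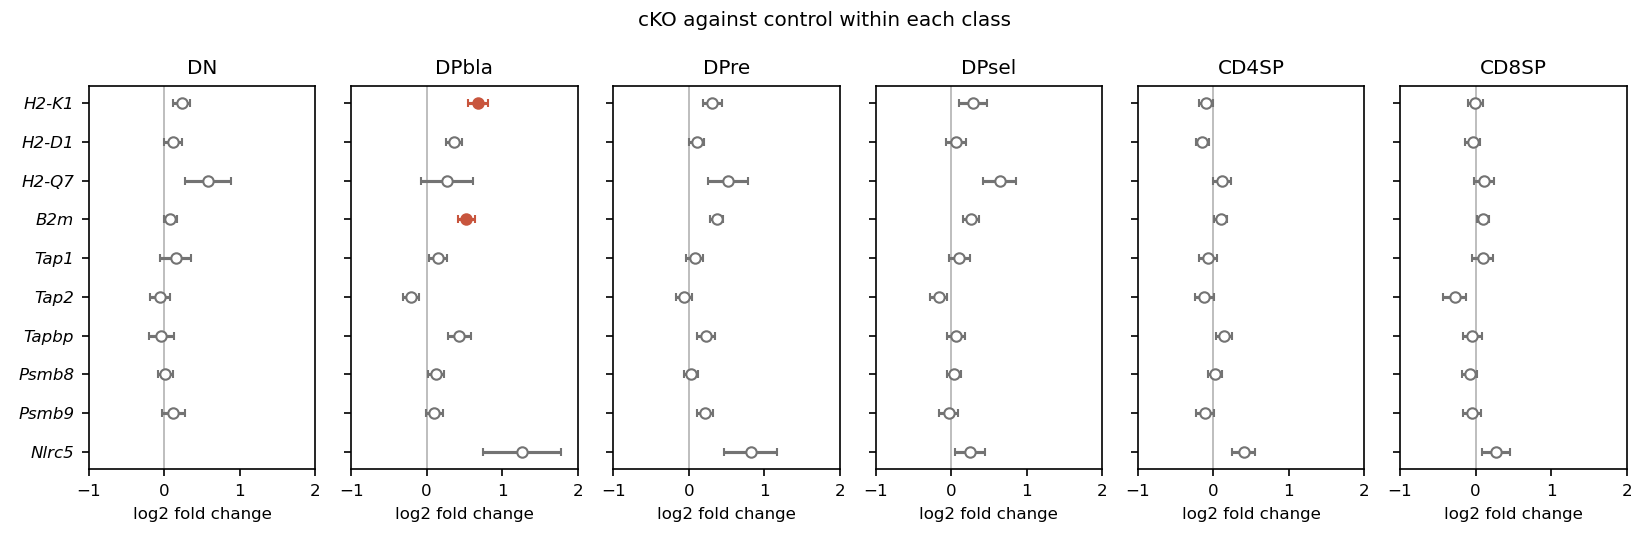
Log2 fold change of cKO over control for each class I gene within each stage (points, with standard errors as bars), where filled red points are called. H2-K1 (0.68) and B2m (0.53) in DPbla cells are the called values, and Nlrc5 was not tested in DN cells.

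Of the wider pathway, Psme2 (0.56, SE 0.11) and Psmb10 (0.53, SE 0.13) were called higher in cKO DPbla cells among the 9 processing and loading genes, and none of the 4 tested further heavy chains or 5 tested class II genes was. Of 10 tested interferon-response genes, Ifit1 (2.87, SE 0.47), Usp18 (2.10, SE 0.40), Rtp4 (1.35, SE 0.26) and Bst2 (0.83, SE 0.11) were called higher by edgeR and 1 by DESeq2. The 12 listed genes summed to 121 and 109 CPM in control and 193 and 183 CPM in cKO DPbla cells, so this level moved with H2-K1 and B2m, and its part in them was not tested. Markers of mononuclear phagocytes (MPS), all 7 of them detected, summed to 252 and 218 CPM in control and 216 and 208 CPM in cKO DPbla cells. Markers of CD4SP cells summed to 16.1 and 36.2 CPM against 22.3 and 28.1 CPM, and those of CD8SP cells to 22.5 and 48.7 CPM against 41.6 and 50.9 CPM. DN markers summed to 138 and 92.6 CPM against 141 and 92.3 CPM, with 5 of 7 genes higher in both cKO libraries, and γδ T cell markers to 221 and 211 CPM against 194 and 206 CPM, with 5 of 6 genes higher in both. DN and γδ T cells held more H2-K1 than DPbla cells (means of 315 and 1073 against 49.4 CPM). The DPbla markers themselves (5431 and 5252 against 4868 and 4917 CPM) and the DPre markers (3263 and 2924 against 2732 and 2674 CPM) were lower in both cKO libraries. The part of these markers in the difference was not tested.

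DPbla cells fell into 3 clusters, led by Cdc6 and Hells (DNA replication), by Cenpf and Ube2c (mitosis) and by Rrm2 and Esco2. The Cdc6-led cluster made up 36.8% and 37.6% of DPbla cells in control and 42.9% and 45.7% in cKO. In it H2-K1 was at 47.1 and 45.2 CPM in control and 78.7 and 62.2 CPM in cKO (0.66, SE 0.17, adjusted p = 0.0490), and B2m at 242 and 191 against 273 and 280 CPM (0.42, adjusted p = 0.0729). In the Cenpf-led cluster H2-K1 was at 43.7 and 25.8 against 57.2 and 52.0 CPM (0.70, adjusted p = 0.159) and B2m at 141 and 111 against 196 and 215 CPM (0.74, SE 0.14, adjusted p = 0.0139). In the Rrm2-led cluster H2-K1 did not overlap (37.5 and 32.1 against 45.7 and 50.8 CPM, adjusted p = 0.359), while B2m did. These fits by cluster were added after the data had been seen.

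**Figure D5:**
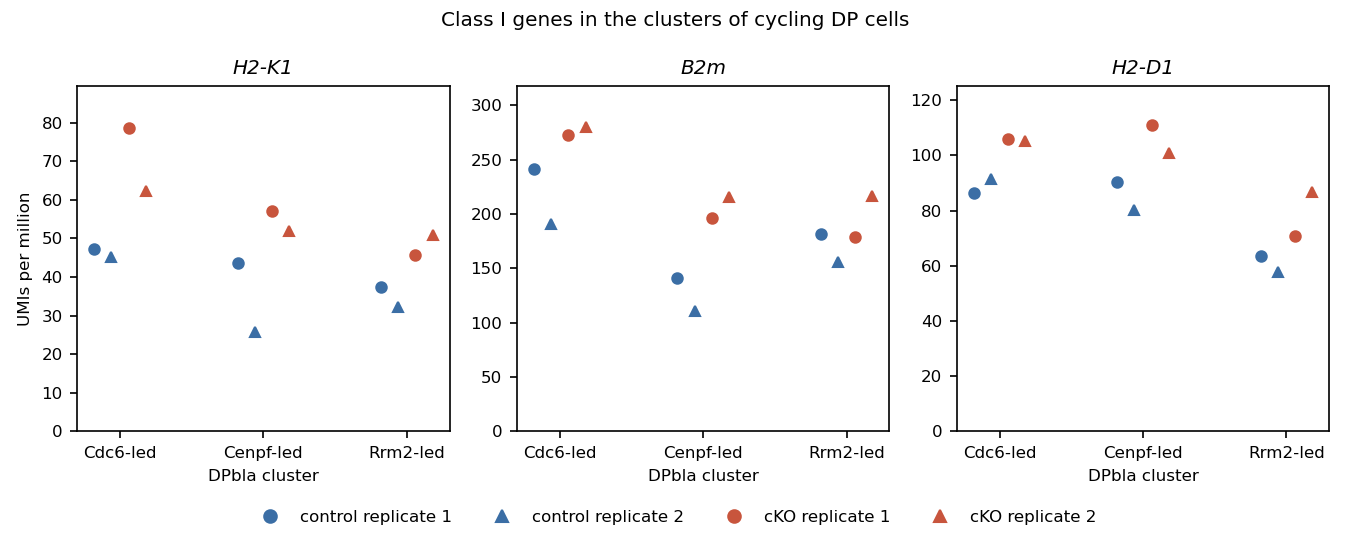
Levels of H2-K1, B2m and H2-D1 (CPM, axes from 0, 1 point per library) in the 3 clusters of DPbla cells, named by their leading gene. Both cKO libraries lie above both controls for H2-K1 and H2-D1 in each cluster, and for B2m in the Cdc6-led and Cenpf-led clusters.

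The DPbla calls depended on how cells were filtered. The H2-K1 difference fell to 0.23 (adjusted p = 0.396) when doublets were kept and to 0.35 (0.322) when cells with extreme UMI totals were kept, B2m fell to 0.40 (0.0282) and 0.31 (0.272). At a mitochondrial limit of 5% they were 0.50 (0.181) and 0.43 (0.152), with 12 genes called in all, and both calls were lost without control 2, without cKO 1 and without cKO 2 (H2-K1 0.55, 0.60 and 0.76, B2m 0.42, 0.59 and 0.46). At such levels free RNA can add to the counts. In the Erythroid class (96 cells, led by Hbb-bs and Hba-a1), H2-K1 was at 29.3, 15.7, 41.9 and 20.5 CPM on 1 to 7 UMIs per library, a range that overlapped that of DPbla cells, and B2m at 39.0, 31.4, 138 and 54.7 CPM. The part of free RNA in the DPbla levels was not tested.

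In DPre cells, where 1.41% of all genes were called, 3 members had an unadjusted p under 0.05 (14.8% of all genes did) and DESeq2 called 1, B2m. B2m was at 216 and 208 CPM in control and 263 and 270 CPM in cKO (0.37, SE 0.09, adjusted p = 0.0649), and 5 members in all were higher in both cKO libraries (18.6% of all genes). A DPre cluster of 116 cells led by Rsad2, Usp18 and Ifit1 held 12, 14, 16 and 74 cells in the 4 libraries, with H2-D1 at 366 CPM and B2m at 603 CPM over all its cells, against 134 and 218 CPM in the largest DPre cluster. Without it the B2m difference in DPre cells was 0.36 (adjusted p = 0.0809). Over all DPre cells, Rsad2 and Bst2 of the 12 interferon-response genes were called higher in cKO by edgeR, and DESeq2 called 2. Of the 12, 11 had a positive log2 fold change (median 0.602), and 7 had an unadjusted p under 0.05. The part of these genes in the B2m difference was not tested. With the replicate block B2m (0.37, adjusted p = 0.000289) and H2-K1 (0.32, adjusted p = 0.0427) were called in DPre cells, where 9.17% of all genes were.

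In DPsel cells (0.0562% of all genes called) 2 members had an unadjusted p under 0.05 and DESeq2 called 0, while edgeR called 2 without cKO 2 (0.964% of all genes). Of all genes, 8.73% had an unadjusted p under 0.05. H2-Q7 was at 17.3 and 11.9 CPM in control and 26.0 and 19.2 CPM in cKO (0.64, SE 0.22, adjusted p = 0.400). With the replicate block H2-Q7 (0.65, adjusted p = 0.0165), H2-K1 (0.29, adjusted p = 0.0210) and B2m (0.27, adjusted p = 0.0173) were called in DPsel cells, where 3.03% of all genes were. In CD4SP cells (0.224% called) it was 1 at unadjusted p (7.65% of all genes) and 0 by DESeq2: Nlrc5 was at 59.8 and 46.0 against 67.8 and 73.7 CPM (0.40, SE 0.15, adjusted p = 0.462). H2-K1 (-0.10, SE 0.09) and H2-D1 (-0.14, SE 0.09) were slightly below 0 there. Of the 12 interferon-response genes, 9 had a positive log2 fold change in CD4SP cells and 6 an unadjusted p under 0.05. Of these 12, edgeR called 0 and DESeq2 called 1. In CD8SP cells (0.0232% called) and in DN cells (0% called) 0 members had an unadjusted p under 0.05 and DESeq2 called 0, with H2-K1 at -0.0039 (SE 0.097) in CD8SP and 0.23 (SE 0.11) in DN cells. Nlrc5 was too low to be tested in DN and MPS cells. A p that misses the threshold does not show that levels were equal.

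Mononuclear phagocytes, which are not a target of the transgene, held 955 to 1493 CPM of H2-K1 and 1481 to 1802 CPM of B2m. The test called 0% of their genes and no member, 0 members had an unadjusted p under 0.05, and DESeq2 called 0. The SEs of H2-K1 and B2m were 0.29 and 0.26 in this class, against 0.13 and 0.11 in DPbla cells. Sums of this class also held 1503 to 2978 CPM of DPre markers, against 6027 to 6680 CPM in DPre cells. The source of these transcripts was not tested. B cells reached 1678 to 2008 CPM of H2-K1 and 354 to 458 CPM of H2-Q7, and γδ T cells 969 to 1243 and 141 to 222 CPM. The H2-K1 ranges of CD4SP and B cells overlapped, and those of DPbla and DPre cells lay below every other class except the Erythroid class.

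The steps themselves were compared between genotypes in a fit with an interaction of stage and genotype over 11535 genes. From DPre to CD4SP cells and from DPre to CD8SP cells no member differed (0.147% and 0.243% of all genes did), with 4 members at an unadjusted p under 0.05 in each (7.47% and 7.70% of all genes), by edgeR alone. The smallest adjusted p was that of B2m on the step to CD8SP (-0.28, SE 0.09, adjusted p = 0.221). From DPbla cells, steps added after the DPbla calls had been seen, the rise to CD4SP was smaller in cKO for H2-K1 (-0.77, SE 0.17, adjusted p = 0.0155), B2m (-0.42, SE 0.09, adjusted p = 0.0113) and H2-D1 (-0.50, SE 0.13, adjusted p = 0.0387), where 1.01% of all genes were called. To CD8SP it was smaller for H2-K1 (-0.68, SE 0.17) and B2m (-0.43, SE 0.09), where 1.73% were called. They start from the same DPbla sums as the genotype test, so they are no separate evidence of it, and all of them were lost when doublets or cells with extreme UMI totals were kept. The 3 calls to CD4SP fell to 0 without control 2 and without cKO 2 and to 1 without cKO 1, and the 2 to CD8SP fell to 1 without control 1 and to 0 without any other library.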

How the data were processed

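The deposited matrices hold UMI counts per gene and cell, which the authors made with Cell Ranger 6.1.1 (version from the file headers) on mm10, 1 filtered matrix per library. Cells with at least 200 genes, at most 10% mitochondrial UMIs and UMI totals outside the highest and lowest 2.5% were kept, and the 5% of cells with the highest Scrublet scores were removed as doublets. Cells were clustered with scanpy 1.11.5 and leidenalg 0.10.2 (3000 variable genes, 30 components, 20 neighbours, resolution 1) and clusters were named from marker lists. Counts were summed per class and library, and levels alone are given for B, γδ T and Erythroid cells. The sums of the 6 stages and of mononuclear phagocytes, each with at least 30 cells in each library, were tested with edgeR 4.0.16 in R 4.3.3 (filterByExpr, TMM, quasi-likelihood F test, two-sided, Benjamini-Hochberg), with DESeq2 1.42.0 as an alternative. The code was tested on simulated data. The members and lists were chosen with earlier results of these data known. The 10 members were fitted in every comparison where their counts allowed, but not each is named in every one. Other genes came from lists, and not every called one is named. The maturity score is a difference of mean log normalised values. Groups came from the genotype labels, and alternatives covered normalisation, filters, clustering, doublets, blocking and each library left out. The p-values rest on 2 mice per group, and intervals of levels were not computed. Some listed genes are not reported here.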

Additional observations from a re-analysis of the deposited data

Results flagged for a closer look

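The difference between cKO and control was smaller in SP than in DPbla cells for several members, by the interaction term of the edgeR fit over the 4 libraries, on steps added after the DPbla calls had been seen. In CD4SP minus DPbla cells it was -0.769 for H2-K1 (adjusted p = 0.0155), -0.50 for H2-D1 (adjusted p = 0.0387) and -0.425 for B2m (adjusted p = 0.0113) on the log2 scale. In CD8SP minus DPbla cells it was -0.678 for H2-K1 (adjusted p = 0.0303) and -0.435 for B2m (adjusted p = 0.00739). None of these calls was kept when doublets were kept or when cells with extreme UMI totals were kept.

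Tapbp was higher in both cKO libraries than in both controls in DPbla cells and in CD4SP cells, and lower in both in mononuclear phagocytes (184.8 and 199.4 CPM in control, 165.1 and 130.3 CPM in cKO). The fitted change in the phagocytes was -0.337 on the log2 scale, with an SE of 0.31. This difference between classes was not tested.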

How the results depend on the processing

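Over the stage steps, 916 of 943 alternative values of the 67 member values called in the reported fit kept direction and call, a count that leaves out members that gained a call. The 3 that reversed belonged to the step from DPbla to DPre: H2-D1 was -0.33 with doublets kept, and Tap1 and Tap2 were 0.066 and 0.068 with extreme UMI totals kept. With doublets kept, that step had 10 members called instead of 6, where 8485 of 11423 genes were called instead of 8434 of 11271. By genotype in DPbla cells, the 2 calls became 0 at a mitochondrial limit of 5%, 1 with doublets kept, 0 with extreme totals kept, and 1, 1 and 0 in the Cdc6-led, Cenpf-led and Rrm2-led clusters alone (added after seeing the data), and 0 to 2 with 1 library left out. In DPre cells 0 calls became 1 with DESeq2 and 1 without a filter on low counts, and in DPsel cells 0 to 2 were called with 1 library left out (2 without cKO 2). With the replicate number as a block, 4 members were called in DPbla (H2-D1 and Tapbp added), 2 in DPre and 3 in DPsel cells, and genes called in all rose from 264 to 1099 in DPbla and from 167 to 1082 in DPre cells. Same-numbered samples correlated in their deviations by 0.0488 to 0.277 over the classes, and the labels do not say that the numbers mark the study's 2 pairs of littermates. The block changed no call of a member in DN, CD4SP, CD8SP or MPS cells. Genes called in all fell to 12 in DPbla cells at the 5% limit and to 9 in DPre cells without cKO 2. The difference of the step from DPre to CD4SP had 1 member called instead of 0 without a filter and 1 with extreme totals kept. That from DPbla to CD4SP (3 calls) had 0 at the 5% limit, with doublets kept and with extreme totals kept, and 0 to 2 with 1 library left out. That from DPbla to CD8SP (2 calls) had 0 at resolution 1.5, with doublets kept and with extreme totals kept, and 0 to 1 with 1 library left out. By maturity in CD4SP cells, 4 calls became 7 at resolution 1.5 and 5 with doublets kept, and in CD8SP cells 4 became 6 and 5. Genes called in all went from 794 of 7793 to 1342 of 8178 and 1109 of 7922 in CD4SP cells. In CD8SP cells they went from 854 of 6654 to 1676 of 7442 and 360 of 6517. The causes were not tested. Classes with under 30 cells in a library under an alternative (DN, CD8SP and MPS at the 5% limit, MPS at resolution 1.5 and with extreme totals kept) were not run. Depth limits Nlrc5 in DN and DPbla cells, where a library held 0 to 20 UMIs.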
